A study of Mus musculus with 6 samples.

Results

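The genes described here restrain the cell cycle in mammals: 4 cyclin-dependent kinase (CDK) inhibitors (Cdkn1a, Cdkn1b, Cdkn2c and Cdkn2d), the 3 members of the retinoblastoma family (Rb1, Rbl1 and Rbl2) and 3 antiproliferative genes of the BTG and TOB family (Btg1, Btg2 and Tob1). They were chosen by name, and all 10 were found among the 23955 genes of the files. Ribosome-bound mRNA was sequenced in 3 libraries of diencephalon and 3 of cortical grey matter, a comparison of astrocytes from the brain regions that the title of the series links to proliferation, neural stem cell potential and Smad4. Every library pooled 3 mice of the C57BL/6 strain, aged 3 months and of both sexes, and no label says whether the same mice gave both regions. The diencephalon was taken without the zone bordering the third ventricle, and the grey matter was freed of meninges and white matter. Mice of both groups had the genotype Slc1a3 +/- GFP+ Rpl22HA fl/fl. They carried a tamoxifen-inducible Cre in the Slc1a3 (Glast) locus, a floxed Rpl22 allele that gains a haemagglutinin tag after recombination, and a CAG-driven EGFP reporter. Tamoxifen was given by gavage to both groups at the age of 9 weeks, so all libraries come from recombined mice with 1 targeted Slc1a3 allele. The tag marks ribosomes of cells that used the Slc1a3 promoter, and the mRNA bound to them was purified; unpurified tissue RNA was not analysed here.

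A cell divides when cyclin D with its kinases, followed by cyclin E with CDK2, phosphorylates the retinoblastoma proteins and frees the E2F transcription factors. CIP and KIP inhibitors (p21 from Cdkn1a, p27 from Cdkn1b) bind several cyclin-CDK complexes, and INK4 inhibitors (from Cdkn2c and Cdkn2d) bind the cyclin D kinases. Rbl2 (p130) is the family member typical of resting cells, Rbl1 (p107) that of cycling cells. BTG and TOB proteins bind the CCR4-NOT deadenylase, which shortens poly(A) tails, and Btg2 is also an immediate early and p53 target gene. Most adult astrocytes are quiescent.

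Promoter sequence from RefSeq (GRCm38.p6) was matched by symbol for 9 of the 10 genes (not Rb1), in 11 windows, and the 250 bases before each transcript start were searched on both strands for motifs of the regulators named above. The motifs were picked after the sequences had been seen, and a match describes letters, not a bound site. The cyclic AMP response element TGACGTCA, typical of stimulus-induced genes, was found for Btg2 alone among the 9 genes searched, starting 166 bases before the transcript start, and in 1.55% of the 32851 windows of the table. The p53 core motif, CATG and CATG with any 6 bases between them, was in an upstream window of Cdkn1a (0.49% of all windows). The window before the other listed Cdkn1a start, at chr17:29093519-29093768, had no match. An E2F motif (TTTCGCGC, TTTCCCGC or TTTGGCGC) was in the upstream window of Rbl1 (1.53%). The whole Btg2 window is shown because Btg2 had the largest log2 difference of the 7 tested members, and the stretches around the matches of Cdkn1a and Rbl1 because p53 and E2F genes were measured beside them; capitals mark the match.
Btg2, chr1:134079156-134079405, minus strand: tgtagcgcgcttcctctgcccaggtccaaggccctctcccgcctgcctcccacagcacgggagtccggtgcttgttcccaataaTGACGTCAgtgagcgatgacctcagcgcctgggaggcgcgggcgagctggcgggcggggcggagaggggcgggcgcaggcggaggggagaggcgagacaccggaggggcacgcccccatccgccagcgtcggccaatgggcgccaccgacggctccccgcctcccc
Cdkn1a, chr17:29090921-29090954, plus strand: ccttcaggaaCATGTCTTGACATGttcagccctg
Rbl1, chr2:157204535-157204562, minus strand: agaaggcgatTTTCGCGCgctttgtcgc

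Deposited expected counts summed to between 1840344 and 2078793 per library in diencephalon and to between 1733145 and 2334237 in cortical grey matter. Cortical grey matter replicate 3 stood apart, since its chi-square per degree of freedom was 6.81 and 5.91 when set against the other cortical libraries, and 2.59 between those. All 14 astrocyte markers were detected, at a sum of 19396 to 22684 CPM (counts scaled to a common library size) in diencephalon and 28450 to 35574 CPM in cortical grey matter. Without Slc1a2 the sum was 10964 to 12856 CPM in diencephalon and 14244 to 17635 CPM in cortical grey matter. By the test described below, 7 of the 14 were lower in diencephalon, 1 was higher (Slc4a4) and 6 did not pass. Of all tested genes 14.8% were lower and 14.9% higher. The 6 markers of cortical excitatory neurons summed to 634 to 976 CPM in diencephalon and 4792 to 5646 CPM in cortical grey matter, and 8 oligodendrocyte markers to 1731 to 2313 CPM in diencephalon and 793 to 1017 CPM in cortical grey matter. The sum of 8 proliferation markers, Mki67 and Top2a among them, was 40.7, 16.3 and 16.2 CPM in diencephalon replicates 1 to 3. In cortical grey matter replicates 1 to 3 it was 26.6, 34.1 and 32.9 CPM. Top2a had 28, 2 and 1 counts in the diencephalic libraries. Mki67, the only marker of this list tested, did not pass (log2 difference -0.69, edgeR adjusted p = 0.159). Without diencephalon replicate 1 it was called lower (log2 difference -1.30). Transcripts typical of other cell types were thus present, and the cells that carried each transcript were not identified. No marker list had a defining marker at 0 in all libraries.

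Btg2 and Rb1 were lower in diencephalic than in cortical libraries, no member was higher, and 5 members did not pass the test. The remaining 3 members (Cdkn2c, Cdkn2d and Rbl1) had too few counts to be tested. Testing used edgeR's quasi-likelihood test on TMM-scaled counts, with Benjamini-Hochberg adjusted p under 0.05 over all 10568 genes with enough counts. Over those genes 14.9% were higher and 14.8% lower in diencephalon, or 29.6% in either direction, so 2 of 7 tested members called is a share close to that of genes at large. At an unadjusted p under 0.05 the counts were also 2 lower and 0 higher, and DESeq2 and limma voom gave the same counts. The median log2 difference of the 7 tested members was -0.39, and that of all tested genes 0.01; leaving out diencephalon replicate 1 gave -0.24 for the members, and leaving out cortical grey matter replicate 3 gave -0.23. Of the 7, 6 had a negative log2 difference, against 49.3% of all tested genes. The groups did not overlap for 3 of the 7 (Rb1, Rbl2 and Btg2, all lower in diencephalon) and for 42.6% of all tested genes (21.8% higher, 20.8% lower). In bulk libraries, fewer cells of a type and less RNA per cell cannot be told apart.

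**Figure D1:**
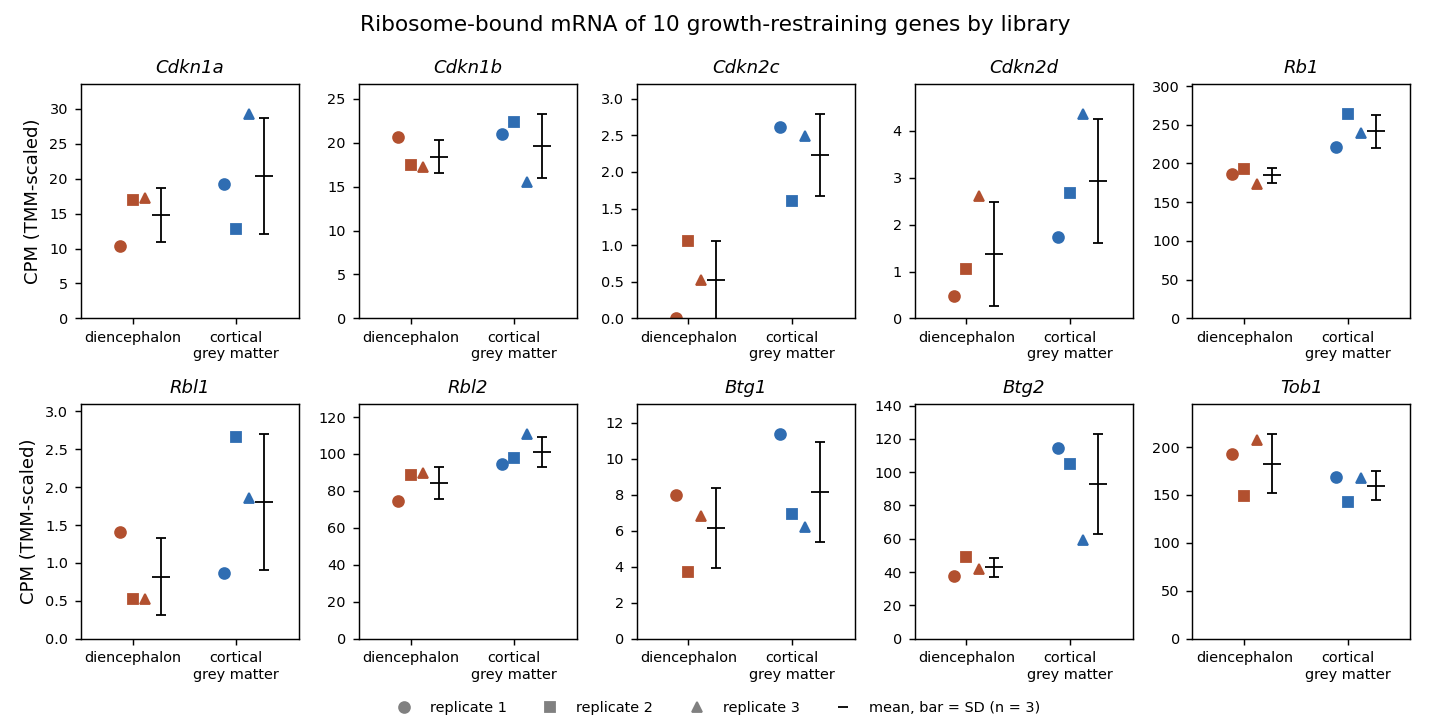
CPM (TMM-scaled, vertical axes from 0) of the 10 genes in 3 diencephalic and 3 cortical grey matter libraries, with 1 symbol per replicate and the mean with its SD beside them. Btg2, Rb1 and Rbl2 are the tested genes whose diencephalic libraries all lie below the cortical ones; for Btg2, cortical replicate 3 at 59.0 CPM lies nearest to the diencephalic libraries.

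Among the tested antiproliferative genes, Btg2 had the largest difference. Btg2, whose product slows the passage from G1 to S phase, was at 37.4, 49.0 and 41.8 CPM in diencephalon replicates 1 to 3, against 115, 105 and 59.0 CPM in cortical grey matter replicates 1 to 3. The groups did not overlap, but the third cortical library was much closer to the diencephalic ones than the other 2 were. The means were 42.8 ± 5.86 CPM in diencephalon and 92.9 ± 29.7 CPM in cortical grey matter (SD, n = 3 each). Its log2 difference was -1.13 ± 0.21 (SE, 95% interval -1.57 to -0.69, edgeR adjusted p = 0.000356), which is 2.19-fold lower in diencephalon. Btg2 passed in all 15 alternative settings run, with log2 differences from -1.37 to -0.86 and adjusted p from 1.90e-09 to 0.0368. Without cortical grey matter replicate 3 the log2 difference was -1.37 (edgeR adjusted p = 3.15e-08).

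Tob1, a larger relative that also recruits the deadenylase, was at 193, 149 and 207 CPM in diencephalon and 169, 143 and 168 CPM in cortical grey matter. The libraries overlapped, and the log2 difference of 0.19 ± 0.14 (95% interval -0.10 to 0.48) did not pass (edgeR adjusted p = 0.323). Tob1 was the only tested member with a positive log2 difference. The TPM of Tob1 was 7.11, 4.19 and 6.83 times that of Btg2 in the diencephalic libraries and 2.03, 1.87 and 3.92 times in the cortical ones, so the ratio did not overlap between regions. Btg1, the close paralogue of Btg2, was weakly covered, with 17, 7 and 13 counts in diencephalon and 26, 13 and 10 counts in cortical grey matter. Its log2 difference of -0.42 had a 95% interval from -1.27 to 0.42 (edgeR adjusted p = 0.471), which includes the difference seen for Btg2. It moved to -0.10 without cortical grey matter replicate 1, to -0.17 without diencephalon replicate 2 and to -0.66 without diencephalon replicate 1, and passed in none of these. Btg1b and Btg1c, X-linked copies of Btg1 that the files list under the older names 4930525M21Rik and 4930430D24Rik, were at 0 in all 6 libraries. Reads of close copies could have been divided among them by the authors' estimation, so the level of Btg1 is uncertain.

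In the retinoblastoma family, Rb1 and Rbl2 were well covered and Rbl1 was close to the detection limit. Rb1, which holds activating E2F factors in check, was at 187, 194 and 174 CPM in diencephalon and 222, 264 and 239 CPM in cortical grey matter. All diencephalic values lay below all cortical ones, with means of 185 ± 9.89 CPM in diencephalon and 241 ± 21.04 CPM in cortical grey matter (SD, n = 3 each). Its log2 difference was -0.39 ± 0.12 (95% interval -0.64 to -0.13, edgeR adjusted p = 0.0224), or 1.31-fold lower in diencephalon. The call for Rb1 was lost when diencephalon replicate 3 was left out (edgeR adjusted p = 0.103), when cortical grey matter replicate 2 was left out (edgeR adjusted p = 0.109) and on the deposited TPM scale (with pseudocounts of 1 and 0.1, limma adjusted p = 0.316 and 0.308), and over alternatives its adjusted p lay between 0.00457 and 0.316.

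Rbl2 was at 74.4, 88.6 and 89.9 CPM in diencephalon and 94.7, 98.0 and 111 CPM in cortical grey matter. These values also did not overlap, as for 20.8% of all tested genes in this direction, but the log2 difference of -0.26 ± 0.14 (95% interval -0.56 to 0.04) did not pass (edgeR adjusted p = 0.190). Rbl1 had 3, 1 and 1 counts in diencephalon and 2, 5 and 3 counts in cortical grey matter. The ratio of the summed Rbl1 counts, diencephalon over cortical grey matter, was 0.486 with an exact 95% counting interval of 0.13 to 1.56, so no difference was detectable at this depth. Per length, Rb1 made up 66.8% to 72.0% of the summed TPM of the family in diencephalon and 69.0% to 73.3% in cortical grey matter, and Rbl1 at most 0.512% in diencephalon and 0.698% in cortical grey matter. The proportions of Rb1 and Rbl2 overlapped between regions.

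Lpar6, a receptor gene that RefSeq places within Rb1, had 15, 16 and 15 counts in diencephalon and 26, 27 and 13 counts in cortical grey matter, and Aktip, which overlaps Rbl2, had 39 or 40 counts in each diencephalic library and 35 to 54 in the cortical ones. The strand setting is not given in the sources used here, so reads of overlapping genes cannot be told apart, and Rb1 had 333 to 508 counts per library.

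Neither CIP and KIP inhibitor among the members passed the test. Cdkn1a, whose p21 product arrests cells after p53 activation, was at 10.3, 16.9 and 17.2 CPM in diencephalon and 19.2, 12.8 and 29.2 CPM in cortical grey matter. The cortical libraries spread widely and enclosed the upper diencephalic values. Its log2 difference of -0.45 ± 0.31 (95% interval -1.09 to 0.19) did not pass (edgeR adjusted p = 0.293). Without cortical grey matter replicate 3, where Cdkn1a was highest, the log2 difference was -0.14 (edgeR adjusted p = 0.778), without cortical grey matter replicate 2, where it was lowest among the cortical libraries, -0.70 (edgeR adjusted p = 0.116), and without diencephalon replicate 1 -0.24. The adjusted p over alternatives lay between 0.116 and 0.778. Cdkn1b, whose p27 product holds resting cells out of the cycle, was at 20.6, 17.4 and 17.2 CPM in diencephalon and 20.9, 22.4 and 15.5 CPM in cortical grey matter. The libraries overlapped fully, with a log2 difference of -0.10 ± 0.25 (edgeR adjusted p = 0.806) and a 95% interval of -0.62 to 0.43. The sign of this difference turned on the TPM scale.

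The INK4 inhibitors were rare. Cdkn2c had 0, 2 and 1 counts in diencephalon and 6, 3 and 4 counts in cortical grey matter, so every cortical library held more reads than any diencephalic one. The Cdkn2c ratio of summed counts, diencephalon over cortical grey matter, was 0.224, with an exact 95% interval of 0.0410 to 0.816 that covers counting error only. In the edgeR fit without a count filter Cdkn2c did not pass (log2 difference -2.01 ± 1.07, adjusted p = 0.187). Cdkn2d had 1, 2 and 5 counts in diencephalon and 4, 5 and 7 counts in cortical grey matter, with overlapping libraries and a ratio of 0.486 (0.180 to 1.20). In the library with no count, Cdkn2c could still have reached 1.40 CPM, the value of 3 counts.

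**Figure D2:**
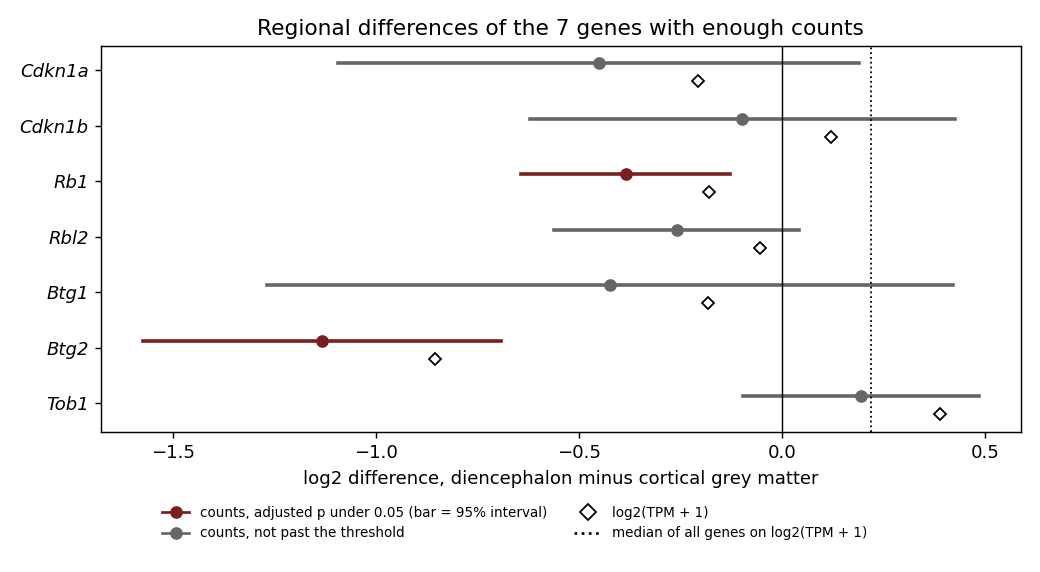
Log2 difference, diencephalon minus cortical grey matter (horizontal axis), of the 7 tested members; filled points with bars are edgeR estimates from counts with 95% intervals, and open diamonds the estimates on log2(TPM + 1). Intervals of Btg2 and Rb1 lie wholly below 0, and the dotted line at 0.22 is the median of all genes on the TPM scale.

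On the TPM scale the median of all genes was 0.22 rather than near 0, and log2 differences of the members moved up by about that much. Btg2 was at -0.86 (limma adjusted p = 0.0329), or -1.07 relative to that median. Rb1 was at -0.18, or -0.40 relative to the median, close to its -0.39 on counts. Cdkn1b was at 0.12, or -0.10 relative to the median, and Tob1 at 0.39 (limma adjusted p = 0.101), or 0.17. Of 9 members with a mean TPM of 1 or more, 1 (Btg2) was lower and 0 were higher on this scale. Of all 14296 genes tested on log2(TPM + 1), 958 were lower and 2118 higher.

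TPM allows levels to be compared between genes per length, and the members spanned a wide range. Tob1 led in both regions, with 317 ± 52.1 TPM in diencephalon and 241 ± 26.8 TPM in cortical grey matter (SD, n = 3 each). Rb1 followed at 151 ± 7.95 TPM in diencephalon and 172 ± 11.9 TPM in cortical grey matter, in each region with libraries that did not overlap those of Tob1 or of the next gene. In diencephalon the next genes were Rbl2 (66.3 ± 7.64 TPM) and Btg2 (53.7 ± 7.93 TPM), whose libraries overlapped. In cortical grey matter Btg2 (101 ± 32.3 TPM) came before Rbl2 (68.7 ± 6.21 TPM), again with overlapping libraries. Cdkn1a and Cdkn1b followed in both regions, at 31.3 ± 8.63 and 30.1 ± 2.63 TPM in diencephalon and 37.4 ± 15.6 and 27.9 ± 4.85 TPM in cortical grey matter, and did not differ from each other beyond their spread. Cdkn2d, Btg1, Cdkn2c and Rbl1 were lowest in both regions, from 0.63 ± 0.381 TPM for Rbl1 to 4.65 ± 3.77 TPM for Cdkn2d in diencephalon and from 1.20 ± 0.583 to 8.48 ± 3.88 TPM for the same genes in cortical grey matter. The summed TPM of all 10 genes was 661 ± 44.3 in diencephalon and 670.2 ± 26.8 in cortical grey matter, with overlapping libraries.

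**Figure D3:**
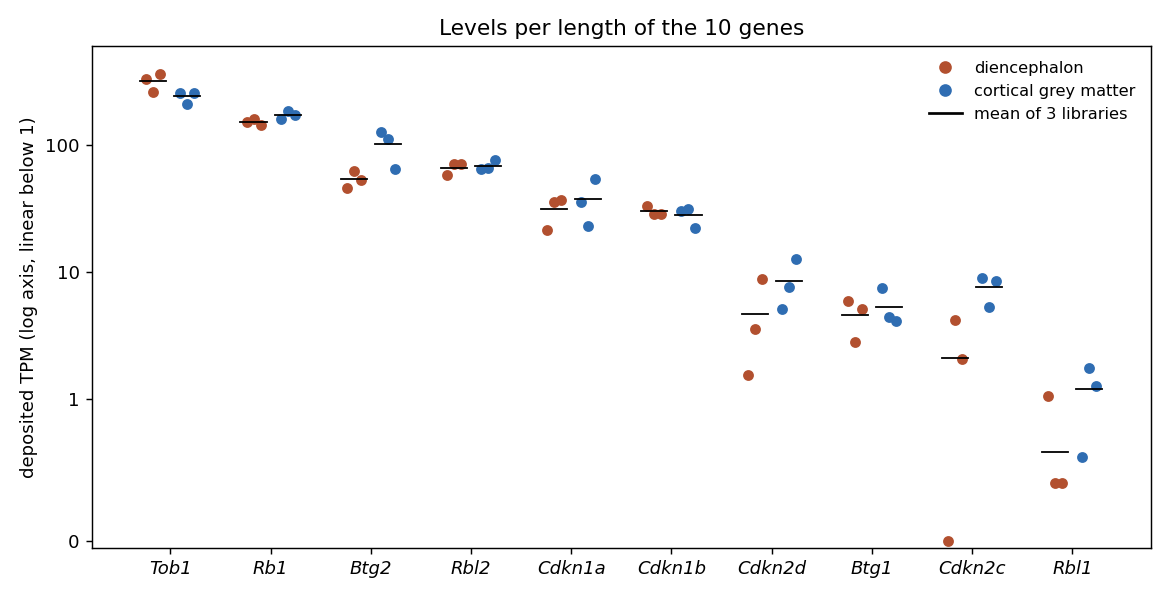
Deposited TPM (vertical log axis, linear below 1) of the 10 genes in each of the 3 diencephalic and 3 cortical libraries, with bars at the means. Tob1 and Rb1 are highest in both regions, Rbl1 lowest, and Btg2 lies below Rbl2 on average in diencephalon and above it in cortical grey matter.

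Because Btg2 is induced as an immediate early gene, 25 other genes of that class were read beside it. Of these 17 had enough counts, and 11 were lower, 1 was higher (Sik1) and 5 did not pass. Of all tested genes 14.8% were lower. The median log2 difference of the 17 was -1.08. Fosl2 and Nr4a3, both called lower, passed the count filter only through cortical grey matter, the group in which they were higher. Fosl2 had 24, 11 and 5 counts in diencephalon and 48, 44 and 31 in cortical grey matter. For Nr4a3 these were 15, 7 and 8 counts and 27, 28 and 16 counts. Klf4, which was not called, passed the filter only through diencephalon. The transcription factor gene Egr1 was at 66.4, 49.0 and 48.6 CPM in diencephalon and 279.7, 272 and 189 CPM in cortical grey matter (log2 difference -2.17 ± 0.17, edgeR adjusted p = 3.85e-09). Egr3 was 8.58-fold, the nuclear receptor gene Nr4a2 2.04-fold and the phosphatase gene Dusp1 1.78-fold lower in diencephalon. The 5 that did not pass went both ways. Their log2 differences were -2.92 for Arc, -0.35 for Klf6, -0.17 for Npas4, 0.46 for Zfp36 and 1.25 for Klf4. The sum of the 25 genes was 688, 617 and 649.6 CPM in the diencephalic libraries and 1678, 1749.9 and 1202 CPM in the cortical ones, lowest among the cortical libraries in replicate 3, as for Btg2. That library was the lowest cortical one for 10 of the 17 tested immediate early genes, against 37.9% of all tested genes.

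The cortical excitatory neuron markers were lower in the same direction, with all 6 called lower and a sum of 902, 976 and 634 CPM in diencephalon and 4792, 5201 and 5646 CPM in cortical grey matter. This sum was highest in cortical grey matter replicate 3, where Btg2 was lowest among the cortical libraries. Microglial markers summed to 223 to 394 CPM in diencephalon and 314 to 746 CPM in cortical grey matter, and meningeal and fibroblast markers to 812 to 1225 CPM in diencephalon and 4358 to 7972 CPM in cortical grey matter. Without the marker Ptgds, the meningeal and fibroblast sum was 516 to 712 CPM in diencephalon and 1338 to 2200 CPM in cortical grey matter. The 9 general neuron markers went both ways, with 3 higher (Slc17a6, Gad2 and Stmn2), 2 lower (Snap25 and Rbfox3) and a sum of 2160 to 2283 CPM in diencephalon and 2582 to 3623 CPM in cortical grey matter. Without Snap25 this sum overlapped between regions, at 1442 to 1625 CPM in diencephalon and 1291 to 1751 CPM in cortical grey matter. Choroid plexus and ependymal markers summed to 122 to 156 CPM in diencephalon and 4.35 to 30.3 CPM in cortical grey matter, 8.19-fold higher in diencephalon. Without Ttr they were 4.89-fold higher. Vascular markers summed to 83.8 to 109 CPM in diencephalon and 137 to 248 CPM in cortical grey matter, and overlapped without Vtn (56.9 to 66.9 and 66.5 to 80.7 CPM). Oligodendrocyte progenitor markers summed to 186 to 221 CPM in diencephalon and 266 to 281 CPM in cortical grey matter. The part of these markers in the results for Btg2 and Rb1 was not tested. The smallest p that an exact permutation test can give with 3 against 3 libraries is 0.1. The 2-sided p of this test was 0.1 for the excitatory neuron, meningeal and immediate early sums and 0.2 for the microglial sum. It was also 0.1 for the astrocyte, oligodendrocyte, oligodendrocyte progenitor, vascular, general neuron and choroid plexus sums, and 0.4 for the proliferation sum.

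**Figure D4:**
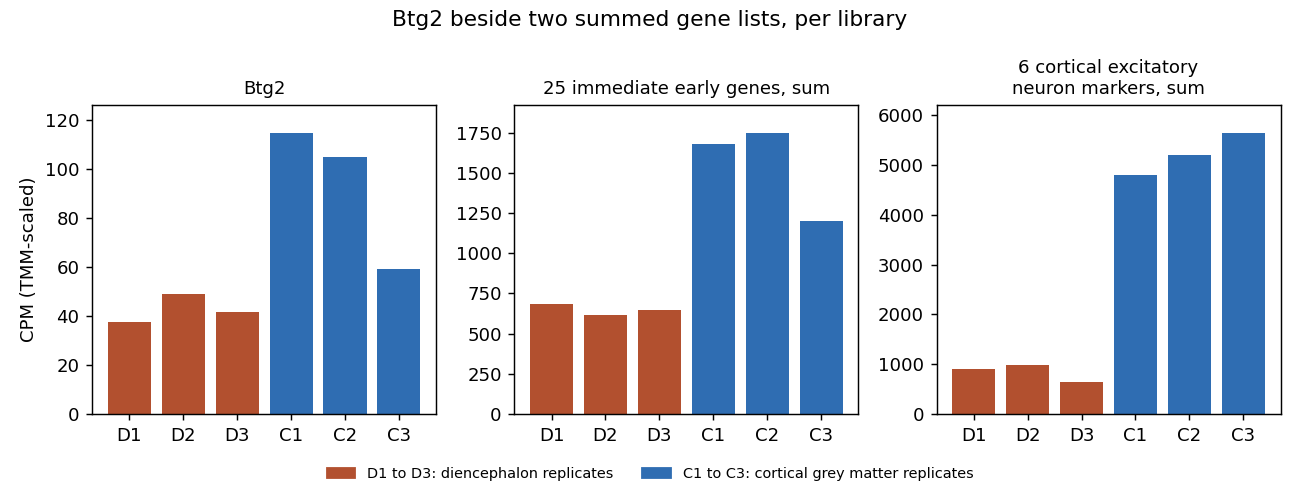
CPM (vertical axes from 0) per library for Btg2, for the summed 25 immediate early genes and for the summed 6 cortical excitatory neuron markers, diencephalic libraries to the left. Cortical replicate 3 is the lowest cortical bar for Btg2 and the immediate early sum and the highest for the neuron markers.

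Among 8767 other genes with a mean of at least 10 CPM, the profile over the 6 libraries most like that of Btg2 was that of Cd44, which encodes a hyaluronan receptor, with a root mean square difference of 0.161 on the centred log2 scale. Bmyc (0.164) and Eid1 (0.182), whose product is known to bind the retinoblastoma protein, came next. Cd44 was at 10.7 CPM on average in diencephalon and 22.0 CPM in cortical grey matter. Nearest to Rb1 were Trappc12 (0.0256), the pyruvate dehydrogenase kinase gene Pdk2 (0.0308) and Zfp358 (0.0544). These profiles share libraries and depth and are given as a description.

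The CCR4-NOT deadenylase, the partner of BTG and TOB proteins, was represented by 11 genes, all of them tested. Of these 4 were higher in diencephalon (Rqcd1, Cnot1, Cnot6 and Cnot7), 1 was lower (Cnot4) and 6 did not pass, with a median log2 difference of 0.26, against 14.9% of all tested genes higher. Cnot1, the scaffold subunit, was at 367, 371 and 373 CPM in diencephalon and 258, 257 and 293 CPM in cortical grey matter (log2 difference 0.46 ± 0.12, edgeR adjusted p = 0.00527). Rqcd1, the older name of the Cnot9 subunit gene, was 1.75-fold higher in diencephalon. The deadenylase subunit genes Cnot7 and Cnot6 were 1.57-fold and 1.34-fold higher, and Cnot8 did not pass (log2 difference -0.10, edgeR adjusted p = 0.854). Cnot4, a ubiquitin ligase gene of this list, was at 161 ± 14.7 CPM in diencephalon and 259 ± 47.3 CPM in cortical grey matter (SD, n = 3 each, log2 difference -0.68 ± 0.14, edgeR adjusted p = 0.000781). Without diencephalon replicate 3, cortical grey matter replicate 1 or cortical grey matter replicate 2 the number of higher genes was 2. Tob2, the relative of Tob1, was at 51.3 ± 4.31 CPM in diencephalon and 44.7 ± 8.66 CPM in cortical grey matter and did not pass (edgeR adjusted p = 0.456); Btg3 and Btg4 were listed at 0 in all libraries.

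The E2F factors and their DP partners, some of which the retinoblastoma proteins bind, gave 1 higher gene of 7 tested, 0 lower and 6 that did not pass. Over all tested genes 14.9% were higher and 14.8% lower, so 1 of 7 higher is close to the share of genes at large. Lower genes also numbered 0 at an unadjusted p under 0.05 in edgeR, and 0 with DESeq2 and limma voom. The median log2 difference of the list was 0.14. Without cortical grey matter replicate 3, 2 of 8 tested genes were higher. The gene called with all libraries was E2f7, a repressor that acts without the retinoblastoma proteins, with 26, 17 and 44 counts in diencephalon and 3, 3 and 4 counts in cortical grey matter (log2 difference 3.03 ± 0.49, edgeR adjusted p = 6.12e-05). The gene had few cortical counts and passed the count filter through diencephalon. E2f6 had the highest CPM of the list, at 279.9 ± 17.1 CPM in diencephalon and 255 ± 1.22 CPM in cortical grey matter (SD, n = 3 each, edgeR adjusted p = 0.422), with libraries that did not overlap. The log2 difference of E2f5, a repressor, was 0.27 (edgeR adjusted p = 0.437) and that of Tfdp1, which encodes a DP partner, 0.22 (edgeR adjusted p = 0.402). The MuvB complex works with Rbl2 in resting cells. Of 6 tested genes of this complex and its MYB partners, 0 passed in either direction with edgeR, against 29.6% of all tested genes. The count was also 0 at an unadjusted p under 0.05 in edgeR, and 0 with DESeq2 and limma voom. Without the count filter, 1 of 7 genes was higher, Mybl2 (edgeR adjusted p = 0.0303), which had 3, 7 and 0 counts in diencephalon and none in cortical grey matter. The log2 differences of the tested genes included -0.30 for Lin54, the DNA-binding subunit (edgeR adjusted p = 0.226), -0.25 for Lin52 (edgeR adjusted p = 0.598), 0.15 for Mybl1 (edgeR adjusted p = 0.787) and -0.09 for Rbbp4 (edgeR adjusted p = 0.816).

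Among the kinase partners that the inhibitors act on, 2 of 6 tested genes were lower and 0 higher. Over all tested genes 14.8% were lower and 14.9% higher. Higher genes of this list numbered 1 at an unadjusted p under 0.05 in edgeR, and 0 with DESeq2 and limma voom. Ccnd2 was at 145 ± 22.8 CPM in diencephalon and 461 ± 45.2 CPM in cortical grey matter, and Ccnd1 at 39.3 ± 11.6 CPM in diencephalon and 76.0 ± 7.57 CPM in cortical grey matter (SD, n = 3 each). Both passed in all 15 alternatives. The remaining cyclin D gene, Ccnd3, was at 23.2 ± 1.07 CPM in diencephalon and 26.9 ± 5.91 CPM in cortical grey matter and did not pass (log2 difference -0.21, edgeR adjusted p = 0.535). Cdk4, their kinase, did not pass (log2 difference 0.40, edgeR adjusted p = 0.332). Ccne2, a cyclin E gene, was at 17.3, 17.9 and 23.0 CPM in diencephalon and 12.2, 11.7 and 11.2 CPM in cortical grey matter (log2 difference 0.72, edgeR adjusted p = 0.0514). With genes kept from 30 counts on, Ccne2 was called higher (edgeR adjusted p = 0.0376), as it was with limma on TPM (adjusted p = 0.0292 and 0.0296); the adjusted p of all alternatives lay between 0.0292 and 0.201. Of 6 tested genes of the ubiquitin ligases and cofactors that turn over p27, 0 passed in either direction with edgeR, against 29.6% of all tested genes. The count was also 0 at an unadjusted p under 0.05 in edgeR, and 0 with DESeq2 and limma voom. Among them, Skp2 was at 93.7 ± 8.90 CPM in diencephalon and 82.8 ± 3.42 CPM in cortical grey matter. Of the other genes of this list, the signalosome gene Cops5 was at -0.24 (edgeR adjusted p = 0.381), the ligase gene Rnf123 at 0.26 (edgeR adjusted p = 0.365) and Skp1a at -0.18 (edgeR adjusted p = 0.403) on the log2 scale.

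Upstream of the inhibitors, Foxo3, which can activate Cdkn1b and Rbl2, was at 348, 354 and 356 CPM in diencephalon and 590.3, 565 and 566 CPM in cortical grey matter (log2 difference -0.70 ± 0.12, edgeR adjusted p = 8.84e-05). It was the 1 gene called among 4 FOXO genes, against 29.6% of all tested genes called in either direction. Foxo1 was at -0.21 (edgeR adjusted p = 0.232), Foxo6 at -0.31 (edgeR adjusted p = 0.364) and Foxo4 at 0.08 (edgeR adjusted p = 0.905). Of 9 tested genes of the p53 pathway, to which Cdkn1a and Btg2 belong, 3 were higher (Trp53inp1, Mdm4 and Mdm2), 2 lower (Plk2 and Ccng1) and 4 did not pass, against 14.9% of all tested genes higher and 14.8% lower. Mdm4, which restrains p53, was 1.40-fold higher and Plk2, a kinase gene also induced by neuronal activity, 2.43-fold lower in diencephalon. Trp53inp1, a p53-induced gene, was 1.76-fold higher in diencephalon. Ccng1, a cyclin G gene, was 1.37-fold lower on counts, a call that the TPM values did not give (limma adjusted p = 0.174 and 0.169); its adjusted p over alternatives lay between 0.00254 and 0.174. With the trend on gene length removed, 2 p53 genes were higher and 4 lower.

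**Figure D5:**
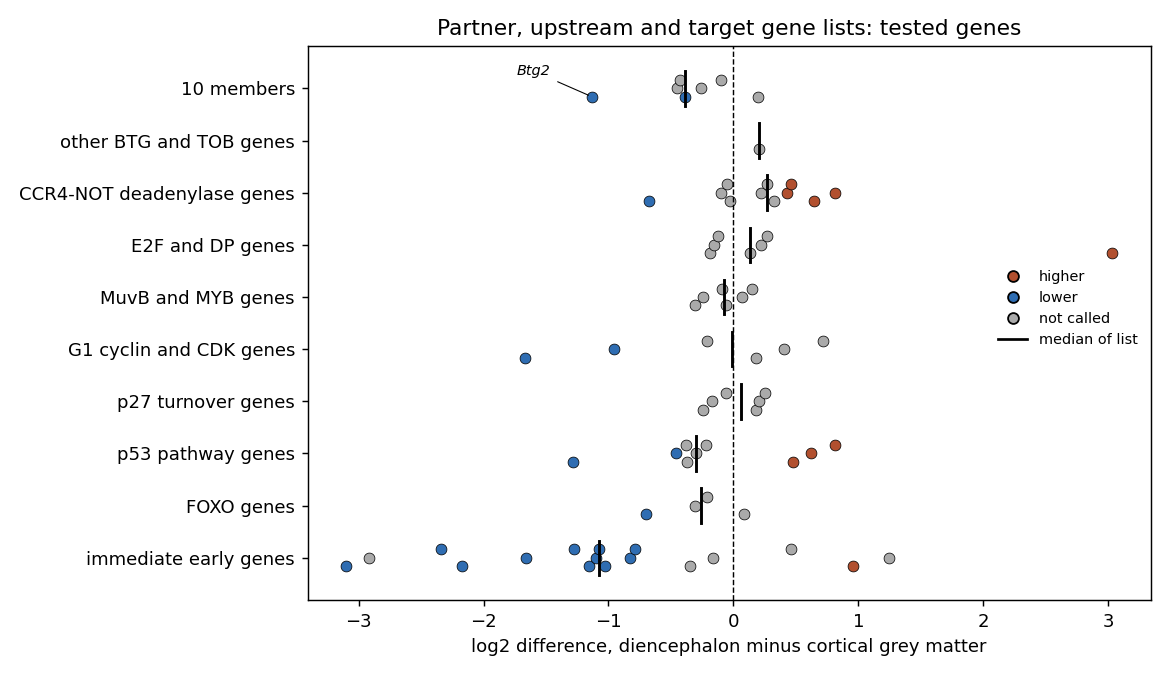
Log2 difference, diencephalon minus cortical grey matter (horizontal axis), of every tested gene of the members and of 9 lists of partner, upstream and target genes, coloured by call at an edgeR adjusted p under 0.05, with a bar at each median. The median of the immediate early genes is -1.08, that of the CCR4-NOT genes 0.26 and that of the 7 tested members -0.39.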

How the data were processed

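The authors deposited 1 file per library with RSEM expected counts, TPM and gene lengths; RSEM and the build mm9 are named in the submitters' processing notes. Aligner, versions and strandedness: not given in the sources used here. The deposited TPM values are scaled by effective length and library total by the authors. Cell type lists, pathway lists, members and tests were chosen with earlier results of these data known, and motifs after the sequences were seen.

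Expected counts were rounded (3.64% to 3.99% of values per library were not whole) and fitted with region as the only term in edgeR 4.0.16 (R 4.3.3; filterByExpr with a minimum count of 10, TMM, robust quasi-likelihood), which kept 10568 of 23955 genes. Standard errors came from the F statistic, and CPM used TMM library sizes. Genes under the filter were compared as summed counts with exact 95% intervals; these and floors of 3 counts (1.31 to 1.86 CPM per library) cover counting error only, since the amplified cDNA carried no stated molecular identifiers.

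Replicates were pools of 3 mice; where pools shared mice, p-values measure only the spread between these libraries. Named genes were all members, up to 4 genes of each pathway list with the smallest adjusted p, and the 3 genes most like each called member; any further gene was picked with its values known. The fit was repeated with RLE size factors, without the filter, with at least 30 counts asked for, with a term for replicate number and without each library in turn. DESeq2 1.42.0 and voom from limma 3.58.1 were run on the same counts, limma was run on log2 TPM with pseudocounts of 1 and 0.1 (mean TPM 1 or more), and a length trend (spline, 5 degrees of freedom) was taken out through an offset. The scripts were tested on simulated counts.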

Additional observations from a re-analysis of the deposited data

How the results depend on the processing

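The counts of higher and lower genes and of members kept within 1.5 times their main values under RLE size factors, no filter, a minimum count of 30, DESeq2, limma voom, the replicate block and removal of the length trend. On log2(TPM + 1) and log2(TPM + 0.1), 958 and 908 genes were lower, against 1559 on counts, and 68.9% and 68.7% of called genes were higher, against 50.2%; 1 member was lower on both scales, against 2. Without 1 library, 1145 to 1681 genes were higher, 1186 to 1692 lower, 1 to 2 members lower and 0 members higher; Rb1 was the member lost, when either diencephalon replicate 3 or cortical replicate 2 was left out.

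Some differences that passed nowhere changed sign. Cdkn1b was at 0.12 and 0.13 on the TPM scales, Lin52 at 0.0001 and 0.0025, Rbbp4 at 0.0508 and 0.0508, and Skp1a at 0.0505 and 0.0507; Skp1a was also at 0.0088 with the length trend removed. With 1 library left out, Foxo4 ranged between -0.32 and 0.45, Lin52 between -0.49 and 0.0108, Mybl1 between -0.13 and 0.59, and Rbbp4 between -0.39 and 0.14. The cause was not tested.

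Same-numbered libraries did not deviate together (correlations across genes of 0.0602, -0.0984 and -0.00653), and differently numbered ones gave -0.171 to 0.182. The numbers were not taken as pairs, but these correlations cannot show whether pools of the 2 regions shared mice. With the replicate block, 1506 genes were higher and 1531 lower, and 2 members lower and 0 higher. Totals of 1733145 to 2334237 counts limit Cdkn2c, Cdkn2d and Rbl1, for which no difference could be tested with the count filter in place.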

Other observations

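Several relatives of the genes described above had too few counts for the count filter. Cdkn1c, an imprinted gene whose p57 product is the third inhibitor of the CIP and KIP family, had 5, 3 and 4 counts in diencephalon and 8, 13 and 17 counts in cortical grey matter. The ratio of its summed counts, diencephalon over cortical grey matter, was 0.307, with an exact 95% counting interval of 0.146 to 0.60. Cdkn1c was called lower in the edgeR fit without the count filter (log2 difference -1.73 ± 0.58, adjusted p = 0.0172). It also passed the filter and was called lower when cortical replicate 1 (edgeR adjusted p = 0.00936) or diencephalon replicate 1 (edgeR adjusted p = 0.0466) was left out. In the fits with a library left out, Cdkn1c passed the filter only through cortical grey matter, the group in which it was higher. It was not called without diencephalon replicate 2 or 3 (edgeR adjusted p = 0.0779 and 0.0666) or with limma on TPM (adjusted p = 0.0571 and 0.0586). Cdkn2a, which encodes a further INK4 inhibitor, had no count in any library, which allows up to 0.504 CPM over the diencephalic group and 0.519 CPM over the cortical group. E2f2, an activating E2F gene, had 13, 19 and 8 counts in diencephalon and 5, 4 and 9 counts in cortical grey matter, a ratio of 2.16 (1.21 to 4.00). In the fit without the count filter E2f2 did not pass (edgeR adjusted p = 0.141). It was called higher when cortical replicate 3 was left out (edgeR adjusted p = 0.0371), a fit in which E2f2 passed the filter through diencephalon. E2f8, the nearest relative of E2f7, went the other way, with 3, 2 and 5 counts in diencephalon and 9, 10 and 9 counts in cortical grey matter, a ratio of 0.347 (0.150 to 0.736), and did not pass without the count filter (edgeR adjusted p = 0.0859). Egr2, an immediate early gene below the filter, had 1, 0 and 0 counts in diencephalon and 18, 20 and 3 counts in cortical grey matter. It was again lowest among the cortical libraries in replicate 3, and was called lower without the count filter (edgeR adjusted p = 8.34e-07). The other immediate early genes below the filter did not pass without it, and their counting intervals included a ratio of 1. Summed counts in diencephalon and cortical grey matter were 14 and 20 for Fos, 12 and 22 for Junb, and 18 and 18 for Ier2. They were 4 and 5 for Fosb, 3 and 7 for Egr4, 2 and 9 for Klf2, and 1 and 1 for Atf3.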
